A study of Mus musculus with 753 samples.

Results

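The genes described here are 9 epidermal adhesion genes, the integrins Itga6, Itgb4, Itga3, Itga2 and Itgb1, the epidermal laminin chains Lama3 and Lamb3, and the hemidesmosome genes Col17a1 and Dst. They were taken by name from the 25001 genes of the combined single-cell table, and all 9 had values in both batches and passed the filter on low values that left 10614 genes for testing. Cells came from mice carrying Gata6EFGPCreERT2 and Rosa26-fl/STOP/fl-tdTomato, in which topical 4-hydroxytamoxifen marks Gata6-expressing epidermal cells and their progeny with tdTomato. All groups share this genotype and this treatment, the mice were adults of 8 to 12 weeks, and the label depends on which cells expressed the Cre at the time of treatment. Marked cells (lin+) and unmarked cells (lin-) were sorted from unwounded back skin (day 0) and from full-thickness wounds at days 6, 9 and 11, and single cells were sequenced by Smart-seq2, a full-length, plate-based method without molecular identifiers.

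The annotated cells numbered 351 lin+ and 333 lin-, in 14 sets of 26 to 93 cells, each set being 1 lineage of 1 mouse set. Unwounded skin, day 9 and day 11 each had a mouse set in both batches (replicates 1 and 2), whereas the day 6 cells, all of the second batch, carried no replicate label and were taken as 1 set per lineage. In the study's methods a day 9 or day 11 replicate was 1 mouse, and the unwounded cells came from the mice that also gave the day 9 and day 11 wounds. By the same methods day 6 had 2 replicates of several mice each, so each day 6 set here pools mice and replicates. Cells were stained for Itga6 protein (CD49f) when sorted, and the proportion of cells taken from the Itga6 high and low/mid gates is not given in the sources used here, so the mRNA levels of Itga6 and of the other genes that mark basal cells depend on how those gates were filled. The part of the gates in each difference below was not tested.

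Basal keratinocytes are fixed to the basement membrane by hemidesmosomes. The integrin α6β4 (Itga6, Itgb4) spans the membrane with the collagen XVII protein (Col17a1), binds the epidermal laminin outside the cell, and is tied inside it to keratin filaments through plectin (Plec) and BP230, the epithelial product of Dst. The β1 integrins α3β1 (Itga3, Itgb1) and α2β1 (Itga2, Itgb1) bind laminin and collagen at focal contacts, and the epidermal laminin itself, whose chains include the products of Lama3 and Lamb3, is laid down by keratinocytes and is part of the provisional matrix under the migrating tongue of a healing wound. Keratinocytes that leave the basal layer lose these contacts.

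In the GRCm38 annotation, Itga6 lies at chr2:71745616-71858416, Itgb4 at chr11:115974709-116008412, Itga3 at chr11:95044474-95076801, Itga2 at chr13:114833081-114932100 and Itgb1 at chr8:128685654-128733200. Lamb3 is annotated at chr1:193207699-193343878, Col17a1 at chr19:47646344-47692094 and Dst at chr1:33908225-34308661. Values are for whole genes, since the tables hold 1 value per gene. The protocol does not mark strand, and the annotated span of Lamb3 overlaps Hsd11b1 on the opposite strand over 42442 bases, that of Itgb4 overlaps B230344G16Rik over 5664 bases that of Dst overlaps Gm26788 over 12591 bases and that of Itga6 overlaps Gm17250 over 2088 bases, so reads from such shared stretches cannot be assigned by strand.

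Promoter windows of 300 bases (250 before and 50 after an annotated start, RefSeq, GRCm38.p6) were at hand for 6 of the 9 genes and are shown, as the first of 2 windows, for Itga3 and Lamb3, which had the smallest p-values between the lineages in unwounded skin among those 6, and for Col17a1, the most abundant of the group. Capitals mark matches to an AP-1 site (TGANTCA), a GC box (GGGCGG) or a TATA box (TATAAA) on either strand.
Itga3, chr11:95076665-95076964, minus strand: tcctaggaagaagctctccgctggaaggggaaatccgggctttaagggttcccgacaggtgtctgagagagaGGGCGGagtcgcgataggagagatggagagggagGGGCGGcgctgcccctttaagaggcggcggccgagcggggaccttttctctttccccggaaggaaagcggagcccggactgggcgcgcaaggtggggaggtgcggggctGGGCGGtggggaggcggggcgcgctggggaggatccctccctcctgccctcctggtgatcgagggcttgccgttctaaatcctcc
Lamb3, chr1:193301744-193302043, plus strand: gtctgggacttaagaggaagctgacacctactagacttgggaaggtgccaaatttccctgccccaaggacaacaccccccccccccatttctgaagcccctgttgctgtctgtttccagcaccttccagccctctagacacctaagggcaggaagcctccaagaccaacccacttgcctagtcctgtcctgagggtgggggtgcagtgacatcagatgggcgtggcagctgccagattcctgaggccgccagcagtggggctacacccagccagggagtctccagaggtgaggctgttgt
Col17a1, chr19:47691993-47692292, minus strand: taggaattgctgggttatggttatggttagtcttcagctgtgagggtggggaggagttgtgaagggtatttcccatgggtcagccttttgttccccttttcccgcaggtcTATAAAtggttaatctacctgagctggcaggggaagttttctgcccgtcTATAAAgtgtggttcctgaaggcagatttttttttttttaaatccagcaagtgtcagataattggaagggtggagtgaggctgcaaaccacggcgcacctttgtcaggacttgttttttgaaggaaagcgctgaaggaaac
The Itga3 window held 3 matches to the GC box, a sequence found in 35.7% of the 32851 promoter windows of the table, and the Col17a1 window held 2 matches to the TATA box, found in 13.6%. No window of these 3 held the AP-1 letters, which 7.81% of windows hold, but the other Itga3 window of the table (chr11:95069149-95069448) held 1 AP-1 match and 1 GC box, and the Lamb3 window held none of the 3 motifs. A match is a run of letters and not a shown binding site.

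Median depth per set ranged from 1806780 to 5967310 reads per cell, and the median number of genes per cell ranged from 1776 to 3228, with the fewest genes in lin+ cells of unwounded skin of replicate 1. All 9 keratinocyte markers were detected in both lineages at summed mean levels of 17391 to 58738 CPM per set, where CPM is the value of a gene scaled to the total of its cell. Summed levels of the immune, fibroblast and endothelial lists were at most 258 CPM in any set, and Cd207 and Lum were at 0 in lin+ cells of unwounded skin. The melanocyte list reached 6617 CPM in 1 lin- wound set and at most 56.0 CPM in the unwounded and the lin+ sets. Of the annotated cells, 4 had fewer than 200 genes and 117 held reads of Ptprc or of at least 2 markers of other cell types. In refits without either group of cells, chosen after the data were seen, no member passed the threshold.

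Per transcript length, Col17a1 was the most abundant of the 9 genes. In the second batch, where the deposited values allow genes to be compared, its level was 289.7 ± 234 TPM (the length-corrected value scaled to the total of the cell, mean ± SD over 8 sets), and it lay above Itgb1, the next gene at 76.1 ± 38.3 TPM, in 8 of 8 sets. Lamb3 followed at 49.3 ± 27.3 TPM and Itga6 at 48.1 ± 41.5 TPM, and these neighbours changed order between sets, Lamb3 being the higher in 4 of 8. Itgb4 at 20.4 ± 9.86 TPM lay below Itga6 in 8 of 8 sets but above Itga3, at 19.2 ± 16.0 TPM, in 4 of 8. The lowest levels were those of Lama3 at 13.4 ± 10.4 TPM, Itga2 at 8.76 ± 10.3 TPM and Dst at 6.58 ± 3.86 TPM, whose order was not stable either. With TPM computed for the 6 sets of the first batch, Col17a1 again led at 294.6 ± 123 TPM and Lamb3 was next at 78.1 ± 46.7 TPM, but Itgb1 stood sixth at 16.7 ± 4.81 TPM, and Itgb4 at 48.2 ± 19.0 TPM lay above Itga6 at 18.6 ± 12.2 TPM, the reverse of their order in the second batch.

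The genes differed in how many cells held their reads. Among all annotated cells, Col17a1 was read in 451, Dst in 450, Itgb4 in 307, Itgb1 in 263, Itga6 in 221, Lamb3 in 212, Lama3 in 144, Itga3 in 134 and Itga2 in 35. Dst, a long transcript read at low level, was found in 66.0% to 88.2% of cells in the second batch but in 23.8% to 56.2% in the first, so its share cannot be compared between batches. Since a set mean falls both when fewer cells of a type are present and when each holds less RNA of the gene, the share of cells with reads is given beside the levels below. The intervals of shares are exact binomial 95% intervals that cover counting error only.

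Across the deposited cell identities, which were assigned from the same cells' expression and therefore allow a description only, the group was most frequent in basal interfollicular epidermis (IFE-B) and outer bulge (OB) cells. Itgb4 was read in 51.2% of 373 IFE-B cells, 55.4% of 121 OB cells and 33.9% of 115 cells of the first upper hair follicle identity (uHF-I), but in 14.8% of 27 uHF-III cells. Col17a1 was read in 71.6% of IFE-B, 84.3% of OB, 53.9% of uHF-I and 14.8% of uHF-III cells. The lead of OB cells came from the second batch, since in the first Itgb4 was read in 52.8% of IFE-B and 33.3% of OB cells and Col17a1 in 80.3% and 79.2%. Detection in uHF-I cells differed as well, with Itgb4 in 13.9% of them in the first batch and 43.0% in the second. In sebaceous gland (SG) cells Itgb1 was read in 69.6% of the 23 cells (95% interval 47.1 to 86.8%), the highest share of any identity. Itgb4 was read in 4.35% of the SG cells and Lamb3 in none (0 of 23 cells). Itga6 was read in 30.4% of SG cells, near its share of 30.6% in OB cells. Lamb3 was read in 36.2% of IFE-B and 38.8% of OB cells but in 1 of 27 uHF-III cells and 0 of 15 uHF-II cells. The 10 differentiated interfollicular cells (IFE-DI and IFE-DII) held no read of Itga3, Itga2, Lama3 or Lamb3.

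**Figure D1:**
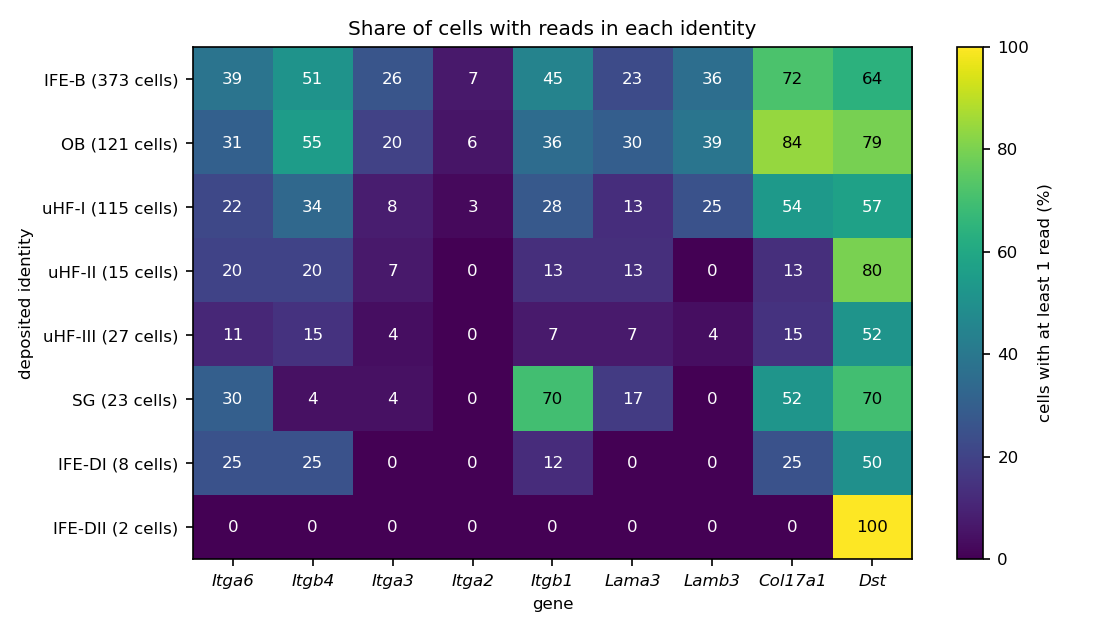
Share of cells with at least 1 read of each gene (columns, %) in each deposited identity (rows, with the number of cells), both batches together. Itgb4 and Col17a1 are read most often in IFE-B and OB cells, Itgb1 most often in SG cells, and Dst is read in at least 50% of cells in every identity.

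The makeup of the lineages differed in these identities. In unwounded skin 44 of 93 lin+ cells (47.3%, interval 36.9 to 57.9%) and 67 of 95 lin- cells (70.5%, 60.3 to 79.4%) were IFE-B, while 34 lin+ cells (36.6%) and 5 lin- cells (5.26%) were uHF-I. In wounds 132 of 258 lin+ cells (51.2%) and 130 of 238 lin- cells (54.6%) were IFE-B.

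In unwounded skin the question is whether marked cells differ from their unmarked neighbours in basal adhesion genes. All 9 genes had a lower mean level in lin+ than in lin- cells in both mouse sets, a pattern shared by 26.5% of the 10614 genes tested, and their median log2 difference was -1.87 against -0.03 over all genes. None of the 9 passed the adjusted threshold of 0.05 in limma, which 0.462% of genes did, and 3 of the 9 had an unadjusted p below 0.05, as did 15.2% of all genes. edgeR on summed reads called 0 of the 9 and DESeq2 3 (Itga6, Itga3 and Lamb3), among 2348 genes that DESeq2 called in all. With 2 mouse sets the differences are therefore large for some members but not established gene by gene.

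Itga3 showed the largest difference. Its mean level was 3.51 CPM in lin+ against 87.2 CPM in lin- cells of replicate 1, and 3.27 CPM in lin+ against 48.0 CPM in lin- cells of replicate 2, while the median cell of every one of these sets held no read. Reads were found in 8 of 93 lin+ cells (8.6%, interval 3.79 to 16.2%) and 23 of 95 lin- cells (24.2%, 16.0 to 34.1%). The log2 difference was -3.91 ± 0.81 (SE, limma p = 0.000588, adjusted p = 0.0675). In replicate 1 a single cell carried 86.4% of the lin+ sum. Among IFE-B cells alone the difference was of the same size, at -3.95 with an adjusted p of 0.144 in limma.

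The other integrin chains were lower by less. Itga6 stood at 27.0 CPM in lin+ and 106 CPM in lin- cells of replicate 1, and at 39.9 and 142 CPM in replicate 2, a log2 difference of -1.87 ± 0.60 (limma adjusted p = 0.182). Itgb4 stood at 94.0 and 200.5 CPM in replicate 1 and at 18.6 and 40.5 CPM in replicate 2, so both sets gave a log2 difference of -1.08. Itgb1 differed by -0.69 ± 0.62 and Itga2, read in 5 lin+ and 10 lin- cells, by -1.89 ± 1.21 (limma adjusted p = 0.637 and 0.495). Of the α3β1 pair the gap was thus wide for α3 and within about its standard error for β1.

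Of the laminin chains, Lamb3 stood at 58.9 CPM in lin+ and 366 CPM in lin- cells of replicate 1 and at 63.4 and 104 CPM in replicate 2. Its log2 difference was -1.66 ± 0.52 (limma adjusted p = 0.174). It was -2.62 without the day 0 cells of replicate 2 and -0.70 without those of replicate 1, each of these resting on 1 unwounded mouse set. Lama3 stood at 27.0 and 80.6 CPM in replicate 1 and at 5.85 and 34.5 CPM in replicate 2, a difference of -1.96 ± 1.02 (adjusted p = 0.402).

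The hemidesmosome genes differed unevenly between the replicates. Col17a1 was level in replicate 1, at 1456 CPM in lin+ and 1487 CPM in lin- cells, and lower in lin+ cells of replicate 2, at 341 against 788 CPM (log2 difference -0.62 ± 0.40, limma adjusted p = 0.494). Dst was the reverse, at 15.0 against 342 CPM in replicate 1 and 9.80 against 11.4 CPM in replicate 2 (-2.31 ± 1.06, adjusted p = 0.337). Plec, which joins the same plaque, differed by -0.83 ± 0.44 (adjusted p = 0.411) and Cd151, a tetraspanin bound to the laminin-binding integrins, by -0.18 ± 1.21 (adjusted p = 0.974).

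Counted by cells, 8 of the 9 genes were read in a smaller share of lin+ than of lin- cells in both unwounded mouse sets, against 18.2% of all tested genes, and Dst was the exception, with 76.1% of lin+ and 72.9% of lin- cells in replicate 2. The widest gap in shares was that of Itgb4, read in 35 of 93 lin+ cells (37.6%, interval 27.8 to 48.3%) and 59 of 95 lin- cells (62.1%, 51.6 to 71.9%). A lin+ cell of unwounded skin held reads of 2.66 of the 9 genes on average and a lin- cell of 3.78. None of the 9 was read in 11 of 93 lin+ and 4 of 95 lin- cells. Median genes per cell were 1776 in the lin+ and 1795 in the lin- cells of replicate 1, and 2308 and 1900.5 in those of replicate 2.

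**Figure D2:**
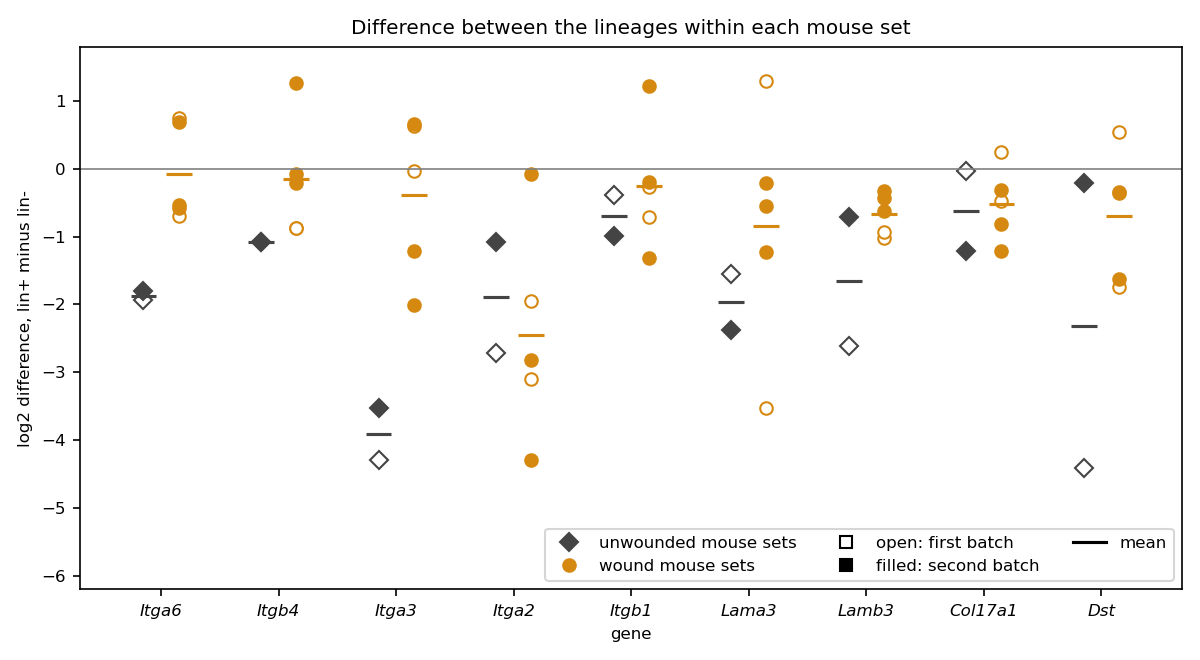
Log2 difference between lin+ and lin- mean levels, log2(CPM + 1), within each mouse set for each gene; diamonds are the 2 unwounded mouse sets, circles the 5 wound mouse sets, open symbols the first and filled symbols the second batch, and bars the means. All unwounded points lie below 0, from -0.03 for Col17a1 to -4.42 for Dst, while the wound points of 7 genes lie on both sides of 0.

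Within wounds the lineages were closer. The median log2 difference of the 9 genes between lin+ and lin- cells was -0.51 over the 5 wound mouse sets, against -0.01 over all genes, and each fitted difference was negative, from -2.45 for Itga2 to -0.07 for Itga6. No member passed the adjusted threshold, which 0.264% of all genes did, and 1 of the 9, Itga2, had an unadjusted p below 0.05, against 7.14% of all genes. edgeR called 0 of the 9 and DESeq2 1, among 729 genes that DESeq2 called in all. Lamb3 and Itga2 were lower in lin+ cells in all 5 wound mouse sets, a pattern of 5.06% of all genes.

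Itga2 had the largest fitted difference of the 9 between the lineages in wounds. It was read in 1 of 93 lin+ cells at day 6 and in 1 of 165 lin+ cells at days 9 and 11, against 10 of 93 and 8 of 145 lin- cells. In 3 of the 4 lin+ sets of days 9 and 11 no cell held a read, and taking 3 cells as the limit that a count of 0 allows, shares of up to 7.14% (42 cells), 6.82% (44 cells) and 9.38% (32 cells) remain possible. The fitted log2 difference was -2.45 ± 0.77 (limma adjusted p = 0.403) and depends on the pseudocount, since the levels were at most 1.77 CPM in lin+ wound sets. In the matched lin- sets the levels ran from 1.91 to 18.6 CPM.

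Lamb3 was lower by a log2 difference of -0.66 ± 0.33 (limma adjusted p = 0.754), with lin+ levels of 119 and 138 CPM against lin- levels of 228 and 280 CPM at days 9 and 11 of replicate 1. In the second batch the lin+ levels were 36.4, 21.7 and 31.8 CPM at days 6, 9 and 11, against 56.5, 29.6 and 40.2 CPM in lin- cells. Itga3, the most unequal of the 9 genes in unwounded skin, was at 79.0 CPM in lin+ and 80.7 CPM in lin- cells at day 9 of replicate 1, and at 103 and 65.9 CPM at day 11. At day 9 of replicate 1 a single cell carried 59.2% of the lin+ and 81.4% of the lin- sum. The median cell of both sets held no read. In the second batch Itga3 was at 5.25 against 24.1 CPM at day 6, 11.7 against 28.4 CPM at day 9 and 15.3 against 9.25 CPM at day 11. Itga3 was thus lower in lin+ cells of day 6 and of day 9 of replicate 2, and level or higher in the other 3 wound sets, and its difference over wounds was -0.39 ± 0.51 (limma adjusted p = 0.936).

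Itga6 was lower in lin+ cells at days 6 and 9 and higher at day 11. It stood at 28.5 against 41.5 CPM at day 6, at 31.1 against 50.8 and 23.7 against 35.9 CPM in the 2 replicates of day 9, and at 44.7 against 26.1 and 36.6 against 22.3 CPM in those of day 11. The fitted difference over wounds was -0.07 ± 0.38 (limma adjusted p = 0.992).

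The change in the lineage difference from unwounded skin to wounds was tested itself. It was positive for 8 of the 9 genes, that is their fitted lin+ level lay less far below the lin- level in wounds. The median over the 9 genes was 1.00 on the log2 scale against 0.01 over all genes. None passed the adjusted threshold, which 0.0188% of genes did, while 2 of the 9 had an unadjusted p below 0.05, against 11.3% of all genes. edgeR called 0 and DESeq2 2, among 1536 genes that DESeq2 called in all. The unadjusted p was below 0.05 for Itga3, with a change of 3.52 ± 0.96 (limma p = 0.00388, adjusted p = 0.288), and Itga6, with 1.8 ± 0.71 (p = 0.0286, adjusted p = 0.405). Itga2 was the 1 gene with a negative value, at -0.56 ± 1.44 (adjusted p = 0.916).

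**Figure D3:**
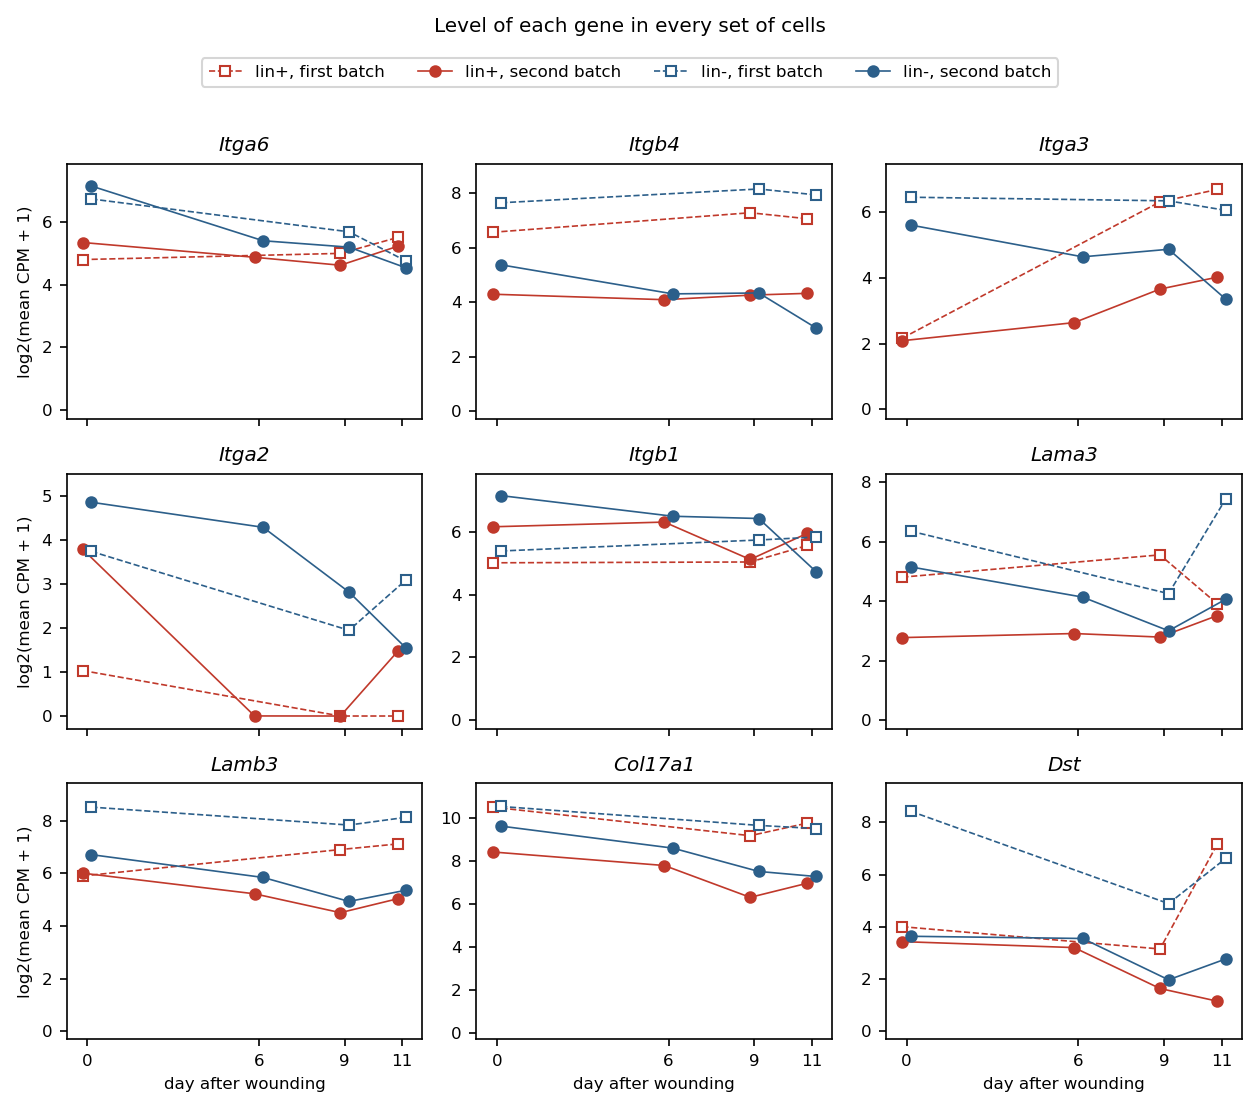
Mean level of each gene, log2(CPM + 1), in every set by day after wounding; red is lin+, blue lin-, open squares the first and filled circles the second batch, and lines join sets of 1 lineage and batch. Itga3 in lin+ cells starts at 3.51 and 3.27 CPM and stands at 103 and 15.3 CPM at day 11, and levels of the batches are in different units and are not to be compared with each other.

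Marked cells were next compared over time, days 9 and 11 against unwounded skin. In lin+ cells no member passed the adjusted threshold, against 0.0942% of all genes, and 2 of the 9 had an unadjusted p below 0.05, against 10.1% of all genes. edgeR called 0 members and DESeq2 2, in a comparison where the alternatives called from 0 to 1591 genes in all. Itga3 was the 1 member above its day 0 level in all 4 sets, a pattern of 17.7% of genes, with a log2 difference of 3.05 ± 0.80 (limma p = 0.00234, adjusted p = 0.240). From 3.51 CPM at day 0 of replicate 1 it stood at 79.0 and 103 CPM, and from 3.27 CPM in replicate 2 at 11.7 and 15.3 CPM, so the log2 difference was larger in the first batch (4.15 and 4.53) than in the second (1.57 and 1.93). Without the day 0 cells of replicate 2 it was 4.2, and without those of replicate 1 it was 1.90. Each of these refits holds 1 unwounded lin+ set, assumed to vary like the other groups. The mean of log2 values gave 1.02 (adjusted p = 0.071). Reads of Itga3 were found in 39 of 165 lin+ cells of days 9 and 11 (23.6%, interval 17.4 to 30.9%), against 8.6% at day 0, with 10.6% and 27.0% in the first batch and 6.52% and 20.9% in the second. The shares of Itga6 (20.4% to 37.0%), Itgb1 (29.0% to 40.6%) and Lama3 (11.8% to 23.6%) also rose in both batches. Those of Itgb4, Lamb3, Col17a1 and Dst rose in the first batch and fell in the second, and that of Itga2 fell in both. Median genes per lin+ cell were 1776 and 2308 in the day 0 sets and 2667.5 to 3108 in the late sets. The part of this wider detection in the shares was not tested.

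Col17a1 was below its day 0 level in all 4 late lin+ sets, as was Itga2, a pattern of 14.3% of genes. It stood at 1456 CPM at day 0 and at 578 and 869 CPM at days 9 and 11 of replicate 1, and at 341 CPM and then 78.1 and 124 CPM in replicate 2. Its log2 difference was -1.41 ± 0.41 (limma p = 0.00474, adjusted p = 0.291). The share of lin+ cells with its reads was 61.7% at day 0 and 70.3% at days 9 and 11 in the first batch, and 78.3% and 60.4% in the second, so the shares moved in opposite directions. The mean level of Itga6 in lin+ cells differed by 0.01 ± 0.60 (limma adjusted p = 0.999). It stood at 27.0 CPM and then 31.1 and 44.7 CPM in replicate 1, and at 39.9 CPM and then 23.7 and 36.6 CPM in replicate 2. The median difference of the 9 genes in lin+ cells was -0.06 against 0.15 over all genes, with 4 above 0 and 5 below.

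In lin- cells all 9 fitted differences between days 9 and 11 and day 0 were negative, with a median of -1.06 against 0.11 over all genes. The median was -0.14 with the mean of log2 values and -2.04 in IFE-B cells alone. None passed the adjusted threshold, against 0.188% of genes, and 2 had an unadjusted p below 0.05, against 12.8% of genes. edgeR called 0 of the 9 genes and DESeq2 2, in a comparison where the alternatives called from 0 to 2002 genes in all. Of the 9 genes, 6 (Itga6, Itga3, Itga2, Lamb3, Col17a1 and Dst) were below day 0 in all 4 late sets, a pattern of 15.1% of genes. Col17a1 stood at 1487 CPM at day 0 and at 807 and 727 CPM later in replicate 1, and at 788 CPM and then 181 and 154 CPM in replicate 2 (log2 difference -1.59 ± 0.41, limma p = 0.00207, adjusted p = 0.161). Itga6 stood at 106 CPM and then 50.8 and 26.1 CPM in replicate 1, and at 142 CPM and then 35.9 and 22.3 CPM in replicate 2 (-1.90 ± 0.60, p = 0.00745, adjusted p = 0.214). With the mean of log2 values the Itga6 difference was -0.14 (adjusted p = 0.846). The share of lin- cells with Itga6 reads was nonetheless 36.8% at day 0 and 39.3% at days 9 and 11, so the lower level did not come with a smaller share. The share with Col17a1 reads was 81.1% at day 0 and 55.9% (interval 47.4 to 64.1%) at days 9 and 11. Median genes per lin- cell were 1795 and 1900.5 in the day 0 sets and 1943.5 to 3228 in the late sets. The part of this wider detection in the lin- shares was not tested.

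**Figure D4:**
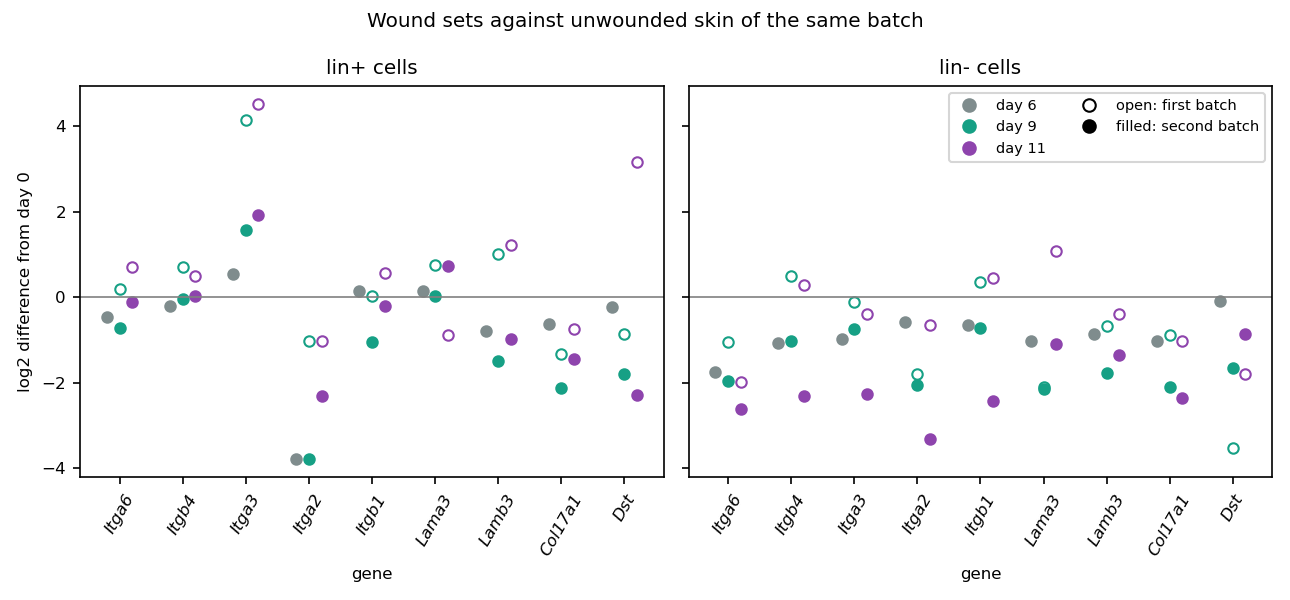
Log2 difference of each wound set from the unwounded set of the same lineage and batch, for lin+ (left) and lin- cells (right); grey is day 6, green day 9, purple day 11, and open and filled symbols are the first and second batch. Col17a1 lies below 0 in every set of both lineages, and Itga3 lies above 0 in the lin+ sets and below 0 in the lin- sets.

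Day 6, with 1 set per lineage, gave no member past the adjusted threshold in either lineage, against 0% of genes in lin+ and 0.0377% in lin- cells. No member had an unadjusted p below 0.05, against 4.32% of genes in lin+ and 5.99% in lin- cells. edgeR called 0 in either lineage, and DESeq2 1 in lin+ and 0 in lin- cells. In all, DESeq2 called 840 genes in lin+ and 759 in lin- cells. The median differences from day 0 were 0.25 in lin+ and -0.62 in lin- cells, against 0.11 and 0.12 over all genes, with all 9 negative in lin- cells. These medians changed sign with the day 0 set left out or with the cells used, to -0.73 in lin+ IFE-B cells alone and to 0.28 in lin- cells without day 0 replicate 2. Itga3 in lin+ cells was still low at day 6, at 5.25 CPM and read in 8 of 93 cells (8.6%), against 3 of 46 cells (6.52%) at day 0 of the same batch.

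Set against day 6, the later days gave no member past the adjusted threshold, against 0.00942% of genes in lin+ and 0.0377% in lin- cells. In lin+ cells no member had an unadjusted p below 0.05, against 2.33% of genes, and in lin- cells 1 did, against 3.99% of genes. Both edgeR and DESeq2 called 0 members, while DESeq2 called 594 genes in all in lin+ and 596 in lin- cells. The gene with an unadjusted p below 0.05 in lin- cells was Col17a1, with a log2 difference of -1.20 ± 0.55 (limma p = 0.0491, adjusted p = 1.00). The median of the 9 genes was 0.06 in lin+ and -0.39 in lin- cells, against 0.06 and 0.00 over all genes.

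Of the other genes of these structures and layers, 1 passed the adjusted threshold in any of the 9 comparisons. Of 22 other hemidesmosome and basement membrane genes 19 were tested and none passed in limma, with a median log2 difference between the lineages of -0.83 in unwounded skin, where 14 were lower and 5 higher in lin+ cells and 3 had an unadjusted p below 0.05, against 15.2% of all genes. In wounds their median was -0.56, again with 14 lower and 5 higher. Of 16 other integrins 5 reached the level for testing and none passed, with a median of 0.42 in unwounded skin and 1 unadjusted p below 0.05, against the same 15.2% of all genes.

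Of 22 integrin-linked cytoplasmic proteins 20 were tested and none passed, with a median of 0.11 in unwounded skin, where 11 were higher and 9 lower in lin+ cells and 2 had an unadjusted p below 0.05, against 15.2% of all genes. All 3 basal keratins were lower in lin+ cells of unwounded skin, with a median of -0.88. Of these, 2 had an unadjusted p below 0.05, against the same 15.2% of all genes, and none passed. Of 8 suprabasal genes 7 were tested, with a median of -0.10 in unwounded skin, where 2 were higher and 5 lower in lin+ cells. An unadjusted p below 0.05 was found for 2 of the suprabasal genes, again against 15.2% of all genes. The 1 that passed was Ivl (involucrin, of the cornified envelope), which was higher in lin+ cells of unwounded skin by 6.57 ± 1.10 on the log2 scale (limma adjusted p = 0.0392). In wounds the same difference of Ivl was 1.56 ± 0.69 (adjusted p = 0.692). The change of the Ivl difference between unwounded skin and wounds was -5.01 ± 1.30 (adjusted p = 0.269).

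In single cells the 9 genes tended weakly to be read together. Over the 36 pairs, the median within-set Spearman correlation of CPM ranged from -0.02 for Itga2 with Dst to 0.39 for Itgb4 with Col17a1, and it was above 0 for 35 pairs. These are descriptions of sparse data in which the cells of a set share their mouse set and differ in depth. Both chains of α6β4 were read in 121 cells, 54.8% of the 221 cells with Itga6 and 39.4% of the 307 cells with Itgb4, and Itgb4 was read in 40.2% of cells without Itga6. Both chains of α3β1 were read in 77 cells, 57.5% of the 134 cells with Itga3, against Itgb1 in 33.8% of cells without Itga3. The laminin chains Lama3 and Lamb3 were read together in 71 cells, 49.3% of the 144 cells with Lama3. Col17a1 was read in 92.0% of the 212 cells with Lamb3 and in 54.2% of cells without it.

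Over the 14 sets, after batch means were removed, the genes whose levels ran most like the mean of the 9 were Rheb (Pearson r = 0.89), Ubap2l (0.88), Ecm1 (0.87), Ackr3 (0.86), Ccdc3 (0.84), Iffo2 (0.84), Lonrf1 (0.83), Sinhcaf (0.83), Hlf (0.83) and the basal keratin Krt5 (0.83). Among the 9 themselves r with their mean, of which each is a part, ranged from 0.60 for Itga3 to 0.91 for Lamb3. The points share mouse sets and lineages, and the correlations are given as a description.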

How the data were processed

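Smart-seq2 libraries of 753 wells were deposited, of which 6 were blank wells and 684 cells had an annotation and a column in the combined table. Per the labels and the study's methods, reads were trimmed with Trimmomatic 0.27 and aligned to GRCm38 with STAR 2.2, genes were counted by featureCounts with the mm10 RefSeq annotation, and cells were clustered and named in Seurat (3.2.2 in the labels). The combined table that the authors deposited holds raw counts per gene for the 222 cells of the first batch and RPKM values for the 462 cells of the second batch, and separate tables hold the RPKM values of the first batch without gene names. Gene lengths were recovered by matching the deposited counts to the deposited RPKM rows (17619 of 17740 genes, each length within 0.00159 bases of a whole number), and second-batch reads from those lengths. On average 99.99% of values under 200 reads came out within 0.02 of a whole number, and at least 99.7% in each cell. Fold changes and ratios were computed here; a further 1048 columns with values of single samples stayed unused.

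Each cell's values were divided by the cell total and given as CPM, the set mean was taken, and sets were scaled within the batch by the median ratio over genes above 5 CPM in all its sets. First-batch CPM therefore rise with gene length and second-batch CPM do not, so levels are compared between lineages and days only within a batch. Symbols that differed between batches were joined through RefSeq synonyms (310 pairs), leaving 19605 genes with values in both, of which 10614 reached 10 CPM in at least 2 sets. log2(CPM + 1) was tested with limma 3.58.1 (empirical Bayes with trend, Benjamini-Hochberg over all genes tested, threshold 0.05). A difference on this scale understates the change of low genes. Days were compared with 1 coefficient for each lineage and day plus batch, and lineages with mouse set as a block plus a lineage term for unwounded skin and another for wounds, each over 14 sets with 5 residual degrees of freedom. The block rests on the labels, which place lin+ and lin- cells in the same mouse set. With day 6 held as 1 set per lineage, its spread is taken from the other sets. The model of days holds no mouse term, so the lin+ and lin- sets of 1 mouse set count as independent. Unwounded cells came from the mice of the day 9 and day 11 wounds, a pairing that neither model holds. The p-values between days therefore do not measure the spread between mice. Those between lineages measure how the lineage difference varies over few mouse sets. The procedure was also run on simulated data with the same noise between sets for all genes beside counting error. Such data do not represent genes whose level rests on few cells. edgeR 4.0.16 and DESeq2 1.42.0 on summed reads were alternatives. The genes, the lists and the rule for named genes (the 9 genes, Plec and Cd151, list genes that passed the test, and the 10 genes most alike) were chosen with earlier results of these data known. A further gene of these lists is not reported here.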

Additional observations from a re-analysis of the deposited data

Results flagged for a closer look

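Itga3 had differences over time of opposite sign in the lineages. From day 0 to days 9 and 11 it was higher in all 4 lin+ sets, with a mean log2 difference of 3.05, and lower in all 4 lin- sets, with a mean of -0.88, a gap of 3.92 between the lineages. This gap was not tested as such, and the wider contrast of wounds with unwounded skin, day 6 included, had an adjusted p of 0.288 in limma. Of all tested genes, 17.7% lay above day 0 in all 4 lin+ sets and 15.1% below it in all 4 lin- sets. The share of genes with both patterns was not counted, and Itga3 was found by looking through all 9 genes. In the day 9 sets of replicate 1 a single cell carried 59.2% of the lin+ and 81.4% of the lin- sum of Itga3. In 27 groups of 4 or 5 differences between sets, no set of the 9 genes lay apart from the others by Dixon's criterion, which chance exceeds in about 1 group in 20.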

How the results depend on the processing

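No member passed the adjusted threshold in limma under another pseudocount, no filter, scaling to the cell total alone, IFE-B cells alone or, chosen after the data were seen, TPM in both batches, nor in edgeR, for any of the 9 comparisons. DESeq2 on summed reads put 2 members past it in lin+ days 9 and 11 against day 0, 2 in lin- days 9 and 11 against day 0, 1 in lin+ day 6 against day 0, 3 in lin+ against lin- in unwounded skin, 1 in wounds and 2 in the difference between them. The mean of log2 values put 1 past it in lin- days 9 and 11 against day 0 (Col17a1, adjusted p = 0.0168). Leaving out any 1 wound mouse set put no member past it in any comparison. Leaving out a day 0 mouse set left 1 unwounded set per lineage, so those refits are read as effect sizes only. The differences of Itga3 and Lamb3 depended on which day 0 replicate was kept. Without the replicate block the unwounded differences were 0 members past the threshold and, for Itga3, -3.91 with an adjusted p of 0.148, and the pairing changed no call on a member. The mean of log2 values gave Itga3 a difference of -1.21 in unwounded skin, and all 9 members stayed lower in lin+ cells there under every alternative run. No difference of a single gene followed through the alternatives changed sign, but the members' median did where it was small, from -0.62 to 0.28 in lin- day 6 against day 0 (without day 0 replicate 2), from 0.25 to -0.73 in lin+ (IFE-B cells alone), from -0.39 to 0.29 in lin- days 9 and 11 against day 6 (mean of log2 values), and in both lin+ comparisons of days 9 and 11 (-0.73 to 0.48 against day 0, -0.18 to 0.37 against day 6). The cause was not tested. Few mice, 5 residual degrees of freedom and genes read in few cells, such as Itga2, limit what can be detected. Counts over all genes varied far more than 1.5 times, in unwounded skin from 2 (IFE-B cells alone) to 2348 (DESeq2) against 49, in wounds from 0 to 729 against 28, in their difference from 0 to 1536 against 2, in lin+ days 9 and 11 against day 0 from 0 to 1591 against 10 and in lin- cells from 0 to 2002 against 20. Against day 0, day 6 gave up to 840 (lin+) and 759 (lin-) with DESeq2 against 0 and 4, and days 9 and 11 against day 6 gave up to 594 and 596 against 1 and 4.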
